A study of Mus musculus with 12 samples.

Results

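The 35 genes described here encode proteins of mitosis: the kinases and cyclins of mitotic entry, the spindle checkpoint, the kinetochore, the spindle motors and the machinery of anaphase and cell separation. They were chosen by name from a list, and each was found as 1 of the 37750 rows of the deposited table. Foxm1 and Top2a lie in rows that join their name with that of another gene (4933413G19Rik and the small nucleolar RNA Gm23451), and the other 33 have rows of their own. RNA was measured in 12 libraries of Ad/NICD mice of a 129 x C57BL/6 background, which carry the active Notch1 intracellular domain in adipocytes. The promoter that drives the transgene is not named in the labels used here. The 8 liposarcoma libraries (LPS) came from tumours of animals aged 9 (LPS 2 and LPS 6), 10 (LPS 3 and LPS 8), 11 (LPS 1, LPS 5 and LPS 7) and 12 months (LPS 4). The 4 white adipose tissue libraries (WAT) came from animals 3 weeks old. All 12 carry the transgene, so no group shows tissue without it, and tumour and age cannot be told apart. Values are FPKM, fragment numbers scaled to transcript length and to library size, which allows levels to be set side by side between genes.

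Most of these genes are transcribed in waves. In resting cells the DREAM complex keeps them silent through a short promoter element called CHR, and in cycling cells the MuvB core of that complex joins B-MYB (Mybl2) and FOXM1 to switch them on before mitosis. Their proteins are then removed by the anaphase-promoting complex as cells leave mitosis. In bulk tissue the summed level of such transcripts is widely used as a measure of how much a tissue is dividing. Young fat grows partly through division of precursor and vessel cells, while mature adipocytes rarely divide.

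Notch1, whose row can also hold fragments of the transgene, had 44.2 to 84.6 FPKM in LPS and 24.5 to 39.5 FPKM in WAT, a log2 difference of 1.07 ± 0.20 (SE; limma adjusted p = 0.000703). FPKM sums ran from 771665 to 996090 per library, and read depth is not part of the table. The median ratio of a library to the geometric mean of all 12 lay between 0.991 and 1.06, apart from LPS 5 at 0.814, in which most genes therefore read low. The labelled tissues were checked against defining markers. Summed over Adipoq, Plin1, Lep, Cidec, Lipe and Pnpla2, mature adipocyte markers held 6.81 to 41.7 FPKM in LPS and 2359 to 2692 FPKM in WAT. Lep was at 0 in at least 1 tumour.

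All 35 mitotic genes had a higher mean in LPS than in WAT, and 26 of them passed the test (limma over all rows, adjusted p below 0.05, referred to as called). None was called lower, and none had a lower mean. Differences are on the log2(FPKM + 1) scale, which understates the change of genes with low levels. The median log2 difference of the 35 was 1.14, against -0.05 over all 14821 rows tested. Of all tested rows, 18.9% were called higher in LPS and 27% lower, against 74.3% and 0 of the 35. After quantile normalization 4182 rows were higher and 3449 lower, in place of 2806 and 4007, and the median of all rows moved to 0.10. Under that scaling 32 of the 35 genes were called. All 35 genes passed the filter on low values. In bulk tissue, a larger number of dividing cells and more transcript in each of them cannot be told apart.

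**Figure D1:**
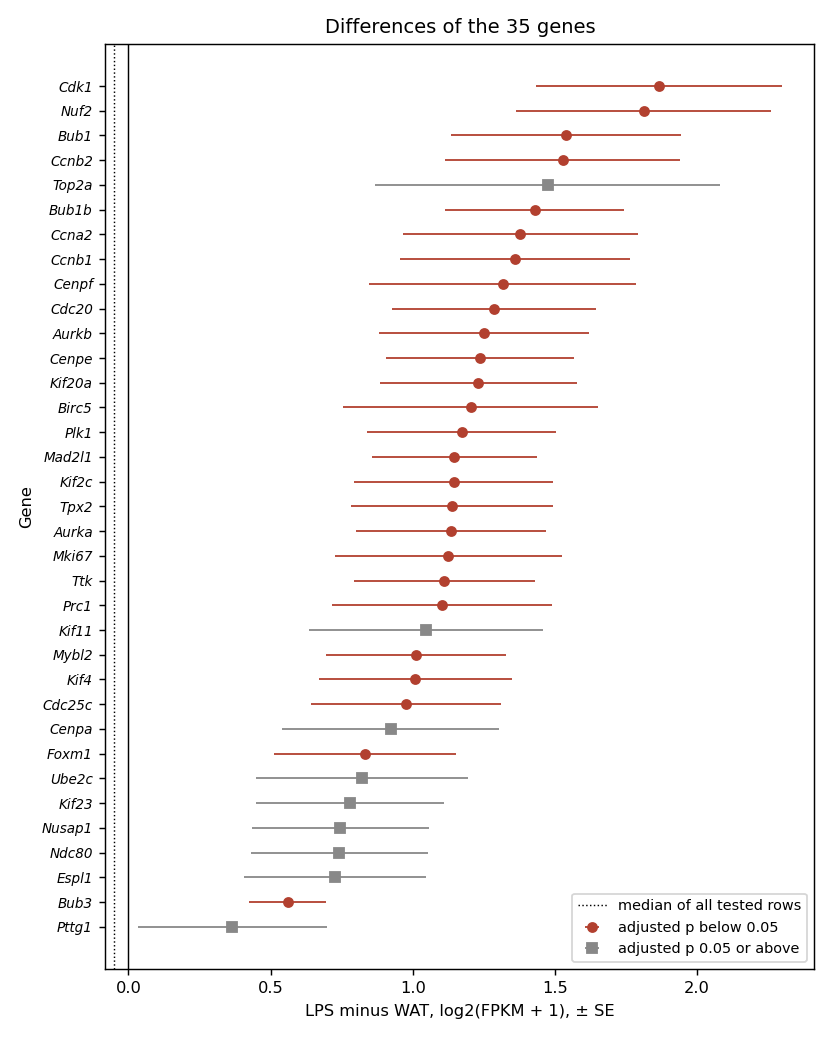
Log2 difference of LPS minus WAT on the log2(FPKM + 1) scale for each of the 35 genes, with bars of 1 SE (8 LPS and 4 WAT libraries). Red points were called and grey squares were not; the dotted line is the median of all tested rows. All points lie above 0, from Pttg1 at 0.37 to Cdk1 at 1.87.

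The size of that count rested on the WAT libraries, above all on WAT 4. Without WAT 4, 11 of the 35 were called: Ccnb2, Cdk1, Plk1, Bub1, Bub1b, Bub3, Mad2l1, Cenpe, Nuf2, Kif20a and Cdc20. Those 11 were also called whichever other single library was left out. Without WAT 1 and WAT 4 together, only Cdk1 and Bub1b were called, 2 of the 35. Of all 14821 rows 1462 were then called higher, so the share of the 35 lay below that of all rows. WAT 1 and WAT 4 held the highest sums of skeletal muscle markers among the fat libraries (1576 and 1327 FPKM). WAT 2 held 4.77 FPKM and WAT 3 held 190 FPKM. The part of muscle in these counts was not tested. In the other direction, 34 were called without LPS 7, all but Pttg1. An exact permutation test of each row, in place of limma, called 19. Of all 14821 rows, 2223 were called higher without WAT 4, 2895 without LPS 7 and 2520 by permutation.

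The tumours formed a steep and shared order. LPS 7 held the lowest level of the 8 tumours for 34 of the 35 genes, and LPS 2 ranked first or second for all 35. The median rank over the 35 genes, counted from the highest tumour, was 1 for LPS 2, 2 for LPS 8, 3 for LPS 5, 4 for LPS 4, 5 for LPS 3, 6 for LPS 6, 7 for LPS 1 and 8 for LPS 7. After median-ratio scaling, which lifts LPS 5, LPS 8 shared the median rank of 3 with LPS 5. As deposited, LPS 5 was the least settled, with ranks from 1 (Cdk1, Bub1 and Mybl2) to 7 (Bub3 and Pttg1). Its ranks ran from 1 to 7 after the scaling too. The highest tumour exceeded the lowest by a median factor of 5.21 over the 35 genes, and by 2.38 over all tested rows above 0 in every tumour.

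LPS 7 lay within the range of the fat. Its geometric mean over the 35 genes was 3.64 FPKM, and those of the other tumours were 6.55 (LPS 1), 18.4 (LPS 2), 10.3 (LPS 3), 13.3 (LPS 4), 13.5 (LPS 5), 9.11 (LPS 6) and 16.1 FPKM (LPS 8), against 5.82, 5.41, 3.83 and 2.07 FPKM in WAT 1 to WAT 4. For 1 gene, Mybl2, LPS 7 lay above all WAT libraries. LPS 1 did so for 20 of the 35, LPS 5 and LPS 6 for 34 each, and LPS 2, LPS 3, LPS 4 and LPS 8 for all 35. None of the 35 genes was free of overlap between the groups, whereas 11.8% of all tested rows lay entirely higher in LPS. Without LPS 7, 20 of the 35 were free of overlap, against 13.5% of all rows, and without LPS 7 and LPS 1 together 34 were, against 14.7% of all rows. Those tumours were left out because their mitotic levels were lowest, a choice made after seeing the data, so these counts are a description. The fat libraries had an order too, with WAT 4 lowest for 34 genes and WAT 1 highest for 22.

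**Figure D2:**
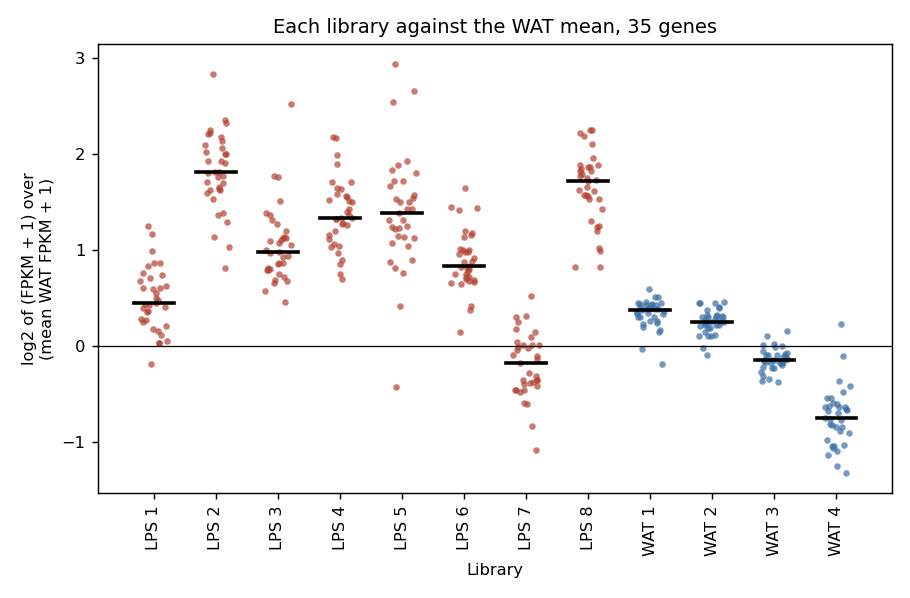
Each point is 1 of the 35 genes in 1 library, as log2 of its FPKM + 1 over the mean WAT FPKM + 1; black bars are medians, LPS red and WAT blue. The median of LPS 7 lies at -0.18, among the WAT libraries, and those of the other tumours lie between 0.45 (LPS 1) and 1.81 (LPS 2).

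Other cell types differed between the groups and between the tumours, and their part in these results was not tested. Within LPS the sum of the 6 adipocyte markers was highest in LPS 1 (41.7 FPKM) and LPS 7 (30.0 FPKM), but a single gene made up most of it in each, Plin1 in LPS 1 (32.2 FPKM) and Pnpla2 in LPS 7 (22.4 FPKM). Without Plin1 and Pnpla2 the sum was highest in LPS 5, at 9.08 FPKM, against 3.50 FPKM in LPS 1 and 7.05 FPKM in LPS 7. Pparg, the regulator of fat cell fate, stood at 82.2 FPKM in LPS 1, 94.2 in LPS 3 and 66.5 in LPS 7, and at 2.93 to 16.4 FPKM in the other tumours, against 70.4 to 134 FPKM in WAT. The 6 T and B lymphocyte markers summed to 0.895 to 13.1 FPKM in LPS and 74.0 to 170 FPKM in WAT. Endothelial markers (5 genes) summed to 52.2 to 124 FPKM in LPS and 146 to 183 FPKM in WAT. Of these genes Tie1 alone was not called lower (mean 20.9 FPKM in LPS and 19.2 FPKM in WAT, limma adjusted p = 0.848). The 5 fibroblast and progenitor markers summed to 16.2 to 344 FPKM in LPS and 892 to 1599 FPKM in WAT. The 5 pericyte markers summed to 3112 to 6644 FPKM in LPS and 131 to 152 FPKM in WAT. The sums of macrophage markers (5 genes) overlapped, at 91.5 to 341 FPKM in LPS and 110 to 190.5 FPKM in WAT. Of these genes Adgre1 alone lay entirely higher in LPS, at 10.6 to 52.9 FPKM against 7.24 to 8.34 FPKM in WAT. The sums of skeletal muscle markers (4 genes) overlapped too, at 0.221 to 395 FPKM in LPS and 4.77 to 1576 FPKM in WAT. Within the fat they were 1576, 4.77, 190 and 1327 FPKM in WAT 1 to WAT 4. The erythroid markers Hbb-bs, Hba-a1 and Alas2 summed to 2512 FPKM in LPS 5, with 12.6 to 377 FPKM for the remaining tumours. In WAT they summed to 964 to 2264 FPKM, below LPS 5. That excess lay in Hbb-bs alone, at most 2430 FPKM in LPS and 2182 FPKM in WAT. Hba-a1 reached at most 43.75 FPKM in LPS and 51.6 FPKM in WAT, and Alas2 38.5 and 39.4 FPKM. No defining marker of the pericyte, endothelial, macrophage or fibroblast lists was at 0 in any library, and Cd3e, Cd3g, Ms4a1, Klf1 and Mylpf were each at 0 in at least 1 tumour.

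Mki67, the gene of the Ki-67 antigen that coats mitotic chromosomes, is the usual marker of cycling cells. It measured 6.55 FPKM in the lowest tumour, 23.3 at the median and 31.7 in the highest, against 12.2, 13.2, 8.29 and 3.73 FPKM in WAT 1 to WAT 4. The tumours LPS 1 and LPS 7 lay within the WAT range and the other 6 above it. Its log2 difference was 1.13 ± 0.40 (SE; limma adjusted p = 0.0343), and its call was lost without LPS 2, LPS 4, LPS 5, LPS 8, WAT 3 or WAT 4 (highest adjusted p = 0.141). Top2a, the topoisomerase that untangles sister chromatids, was the most abundant member in LPS, at 63.9 ± 37.6 FPKM in LPS and 19.5 ± 9.14 FPKM in WAT (SD, n = 8 and n = 4). The row also covers the small nucleolar RNA Gm23451, whose part in these values was not tested. Top2a was also the most uneven across tumours, with 8.69 FPKM in LPS 7 and 117 FPKM in LPS 3, the only gene that peaked there. Its log2 difference of 1.47 ± 0.61 (SE) missed the threshold (limma adjusted p = 0.0638), and passed it without LPS 7 (adjusted p = 0.00553).

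All 7 genes of mitotic entry were called. Cdk1 (chromosome 10, 69336635 to 69352938 on GRCm38), the kinase that drives cells into mitosis, had the largest log2 difference of the 35, at 1.87 ± 0.43 (SE; limma adjusted p = 0.00339). It measured 15.4 FPKM in the lowest tumour, 43.4 at the median and 100.3 in the highest, LPS 5, against 16.4, 17.1, 10.3 and 5.23 FPKM in WAT 1 to WAT 4. LPS 7 alone lay within the WAT range. Its mitotic partner Ccnb1, cyclin B1, averaged 12.7 ± 6.72 FPKM in LPS and 3.89 ± 1.49 FPKM in WAT (SD, n = 8 and n = 4), and its log2 difference was 1.36 ± 0.40 (SE). The related Ccnb2 averaged 17.0 ± 8.50 FPKM in LPS and 5.19 ± 2.74 FPKM in WAT. Ccna2, cyclin A2, which acts from DNA replication into early mitosis, held 8.53 to 48.5 FPKM in LPS and 4.80 to 14.9 FPKM in WAT. Plk1, a kinase of spindle assembly, differed by log2 1.17, Aurka, the centrosome kinase Aurora A, by 1.14, and Cdc25c, a phosphatase that activates CDK1, by 0.98. The calls of Ccna2, Ccnb1 and Aurka ended without WAT 4 (limma adjusted p = 0.0676, 0.0611 and 0.0583), and that of Cdc25c without WAT 2, WAT 3 or WAT 4 (adjusted p = 0.0526, 0.0740 and 0.0964).

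Mybl2 and Foxm1, which encode the transcription factors of this programme, were both called but differed in pattern. Mybl2 measured 1.79 FPKM in the lowest tumour, 5.31 at the median and 9.39 in the highest, against 2.51, 2.12, 2.53 and 1.47 FPKM in WAT 1 to WAT 4. It was the only gene whose lowest tumour was LPS 1 rather than LPS 7. Without WAT 4 its call ended (limma adjusted p = 0.0653). Foxm1, whose row also covers 4933413G19Rik, averaged 9.56 ± 3.85 FPKM in LPS and 4.82 ± 1.95 FPKM in WAT (SD, n = 8 and n = 4), and passed narrowly (limma adjusted p = 0.0492). Its call was lost without LPS 2, LPS 3, LPS 4, LPS 5, LPS 6, LPS 8, WAT 2, WAT 3 or WAT 4, with a highest adjusted p = 0.179.

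All 5 checkpoint genes were called, and their sizes differed widely. The checkpoint holds cells in metaphase until every chromosome is attached. Bub1, its scaffold kinase, measured 1.99 FPKM in the lowest tumour, 7.95 at the median and 18.3 in the highest, LPS 5, against 2.62, 2.51, 1.92 and 1.21 FPKM in WAT 1 to WAT 4. Bub1b, the inhibitor BUBR1, averaged 13.3 ± 4.96 FPKM in LPS and 4.33 ± 2.00 FPKM in WAT (SD, n = 8 and n = 4) and had the lowest adjusted p of the 35 (limma adjusted p = 0.00235). Mad2l1, which captures CDC20, and Ttk, the kinase MPS1 that starts the signal, differed by log2 1.15 and 1.11. The call of Ttk ended without WAT 4 (limma adjusted p = 0.0520). Bub3, the WD-repeat adaptor of BUB1 and BUBR1, showed a small and even difference. It averaged 33.7 ± 5.62 FPKM in LPS and 22.3 ± 1.41 FPKM in WAT, a ratio of 1.51 (limma adjusted p = 0.00426). The row of Bub3 spans 130162451 to 133124354 on chromosome 7, whereas GENCODE M21 places the gene at 131560222 to 131571895, within the span of Fgfr2 on the opposite strand. The labels and notes do not say whether counting used the strand, so the value of Bub3 is uncertain. A gene on the opposite strand also overlaps Mki67, Top2a, Ccna2, Cdc25c, Plk1, Cenpf, Kif11, Kif4, Nusap1, Prc1, Kif20a, Cdc20, Ube2c and Espl1, and the same doubt applies to those 14.

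Aurkb and Birc5 encode the kinase Aurora B and its partner survivin, which correct faulty attachments from the inner centromere. Aurkb averaged 15.8 ± 7.58 FPKM in LPS and 5.74 ± 2.43 FPKM in WAT, and Birc5 17.5 ± 9.74 FPKM in LPS and 6.51 ± 3.04 FPKM in WAT (SD, n = 8 and n = 4). Both were called. Aurkb lost its call without WAT 4 (limma adjusted p = 0.0619). Birc5 lost it without LPS 2, LPS 3, LPS 4, LPS 5, LPS 8, WAT 2, WAT 3 or WAT 4 (highest adjusted p = 0.162).

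Of the 5 centromere and kinetochore genes, Nuf2, Cenpe and Cenpf were called. Nuf2 (chromosome 1, 169497934 to 169531464), a subunit of the NDC80 complex that grips microtubules, had the highest ratio of group means, 5.03. It measured 2.48 FPKM in the lowest tumour, 11.9 at the median and 24.0 in the highest, against 3.55, 3.18, 2.33 and 0.963 FPKM in WAT 1 to WAT 4. Ndc80, with which NUF2 forms a dimer, was not called (4.28 ± 1.88 FPKM in LPS and 2.06 ± 0.865 FPKM in WAT; limma adjusted p = 0.0688). Cenpe, the kinesin that carries chromosomes to the equator, held 1.74 to 10.1 FPKM in LPS and 0.770 to 2.34 FPKM in WAT. Cenpf, a large protein of the outer kinetochore, held 1.24 to 13.6 FPKM in LPS and 0.588 to 3.23 FPKM in WAT. The call of Cenpf was lost without LPS 2, LPS 4, LPS 5, LPS 8, WAT 2, WAT 3 or WAT 4 (highest adjusted p = 0.132). Cenpa, the histone variant that marks centromeres, was not called (19.0 ± 9.31 FPKM in LPS and 8.86 ± 3.04 FPKM in WAT; limma adjusted p = 0.0643).

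The ratio of Nuf2 to Ndc80 parted the groups although neither gene alone did. It was 3.34, 3.50, 2.35, 3.53, 3.40, 2.07, 1.76 and 2.54 in LPS 1 to LPS 8, against 1.36, 1.12, 1.23 and 1.05 in WAT 1 to WAT 4. Every tumour lay above every fat library, including LPS 7, whose levels of both genes were within the WAT range. The difference of the log2 ratio was 1.20 (exact permutation test, two-sided, p = 0.00202, the smallest that 495 splits can give; adjusted p = 0.0202 over 10 pairs). A ratio within a library does not depend on scaling. The pairs were chosen after values were seen, so this test describes a pattern found in the same data. With any WAT library left out, the smallest adjusted p that the design allows for 1 pair is 0.0606, which is what Nuf2 over Ndc80 gave. The row of Ndc80 overlaps a small ribosomal RNA gene, Gm23115, on its own strand, and no other gene overlaps Nuf2 in GENCODE M21.

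**Figure D3:**
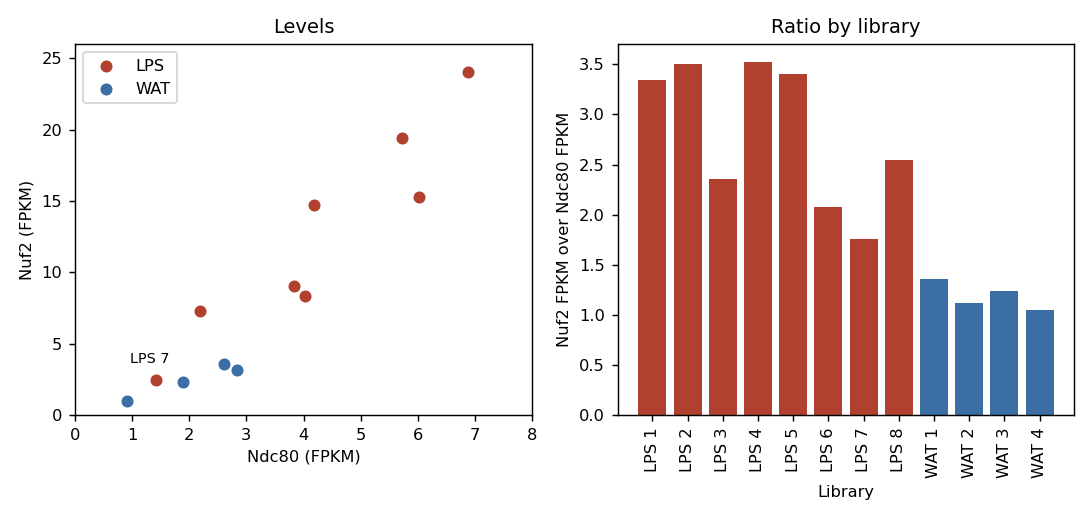
Left, FPKM of Nuf2 against FPKM of Ndc80 in each library; right, their ratio by library (LPS red, WAT blue). The ratio ran from 1.76 to 3.53 in LPS and from 1.05 to 1.36 in WAT.

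None of the other 9 pairs of partner genes passed. Bub1 over Bub3 stood at 0.264 ± 0.161 in LPS and 0.0919 ± 0.0266 in WAT (SD, n = 8 and n = 4; exact permutation test, adjusted p = 0.0741), and passed without LPS 7 (adjusted p = 0.0152). Ccna2 over Cdk1 stood at 0.646 ± 0.121 in LPS and 0.901 ± 0.101 in WAT (exact permutation test, adjusted p = 0.0606), and passed without LPS 4 (adjusted p = 0.0303). Spc25 over Spc24, the other dimer of the NDC80 complex, stood at 2.89 ± 1.69 in LPS and 2.14 ± 0.382 in WAT (exact permutation test, adjusted p = 0.611). Birc5 over Aurkb stood at 1.07 ± 0.172 in LPS and 1.11 ± 0.131 in WAT (exact permutation test, adjusted p = 0.737). The pairs of Ccnb1 and Ccnb2 over Cdk1, Tpx2 over Aurka, Pttg1 over Espl1 and Kif4 over Prc1 had adjusted p-values between 0.384 and 0.718.

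Of the 5 genes of spindle motors and spindle assembly, Kif2c, Kif4 and Tpx2 were called and Kif11 and Nusap1 were not. Kif2c, a kinesin that shortens microtubules, held 2.43 to 11.7 FPKM in LPS and 0.889 to 3.24 FPKM in WAT. Kif4, a chromosome-bound kinesin, held 1.41 to 8.54 FPKM in LPS and 0.556 to 2.92 FPKM in WAT. Tpx2, the activator of Aurora A on the spindle, held 3.70 to 19.5 FPKM in LPS and 2.79 to 7.20 FPKM in WAT. Kif11, the motor that pushes spindle poles apart, averaged 10.9 ± 5.16 FPKM in LPS and 4.56 ± 2.18 FPKM in WAT (SD, n = 8 and n = 4; limma adjusted p = 0.0527). Nusap1, which bundles microtubules, held 2.52 to 11.2 FPKM in LPS and 2.04 to 5.08 FPKM in WAT (limma adjusted p = 0.0667). The calls of Kif4 and Tpx2 ended without WAT 3 (limma adjusted p = 0.0676 and 0.0598) or WAT 4 (0.115 and 0.0757), and that of Kif2c without WAT 4 (0.0747).

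Among the genes of the central spindle, Kif20a and Prc1 were called and Kif23 was not. Kif20a, a kinesin of cytokinesis, measured 2.68 FPKM in the lowest tumour, 8.55 at the median and 13.6 in the highest, against 4.56, 3.70, 2.35 and 1.49 FPKM in WAT 1 to WAT 4. Prc1, the bundler of antiparallel microtubules, averaged 22.6 ± 9.98 FPKM in LPS and 9.22 ± 3.17 FPKM in WAT (SD, n = 8 and n = 4). Its call was lost without LPS 2, LPS 4, LPS 5, LPS 6, LPS 8, WAT 2, WAT 3 or WAT 4 (limma, highest adjusted p = 0.108). Rccd1 overlaps the whole of Prc1 on the opposite strand. Kif20a overlaps Cdc23 by 2327 bases on the opposite strand. Kif23, a motor subunit of centralspindlin, averaged 6.10 ± 2.48 FPKM in LPS and 3.08 ± 1.41 FPKM in WAT (limma adjusted p = 0.0701).

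Of the 4 genes of anaphase control, Cdc20 alone was called. Cdc20, the activator of the anaphase-promoting complex, measured 6.54 FPKM in the lowest tumour, 12.8 at the median and 24.3 in the highest, against 8.55, 6.67, 3.92 and 2.09 FPKM in WAT 1 to WAT 4. Ube2c, the ubiquitin-conjugating enzyme that serves the complex, averaged 18.8 ± 8.97 FPKM in LPS and 9.40 ± 2.93 FPKM in WAT (SD, n = 8 and n = 4; limma adjusted p = 0.0902). It overlaps Tnnc2, a gene of muscle troponin, by 1662 bases on the opposite strand. Espl1, the protease separase that cuts cohesin, averaged 3.84 ± 1.99 FPKM in LPS and 1.81 ± 0.813 FPKM in WAT (limma adjusted p = 0.0805). Pttg1, the separase inhibitor securin, departed from the order of libraries shared by the others. It measured 8.70 FPKM in the lowest tumour, LPS 7, 22.8 at the median and 34.2 in the highest, against 14.1, 15.2, 16.3 and 19.2 FPKM in WAT 1 to WAT 4. WAT 4, lowest of the fat libraries for the other 34 genes, was the highest for Pttg1. As deposited, both LPS 7 and LPS 5 (11.8 FPKM) lay below all WAT libraries. After median-ratio scaling, which lifts LPS 5, only LPS 7 did. The log2 difference of Pttg1 was 0.37 ± 0.33 (SE, limma adjusted p = 0.394).

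**Figure D4:**
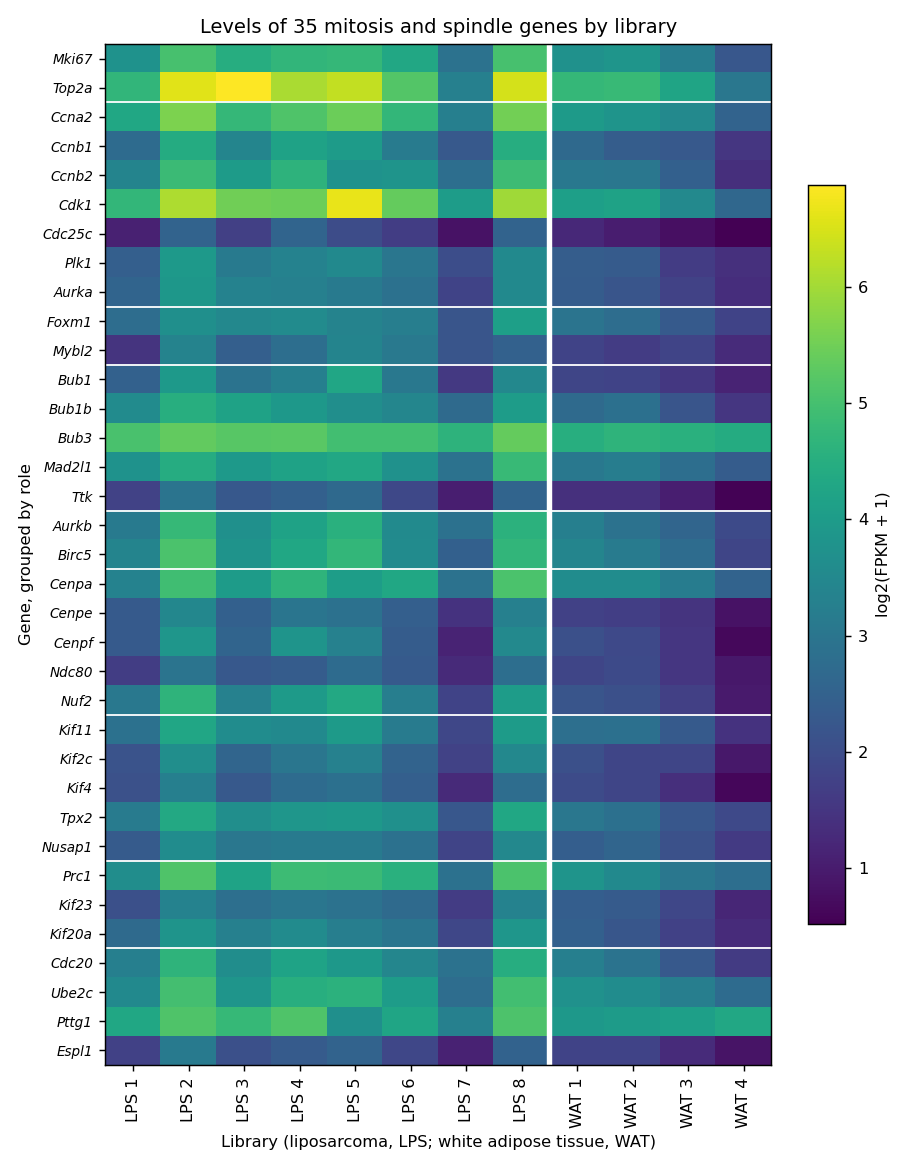
Level of each of the 35 genes (rows, grouped by role) in each library (columns, LPS left of the white line and WAT right of it) as log2(FPKM + 1). The columns of LPS 7 and WAT 4 are dark for nearly every gene. Bub3 is the most even row, and WAT 4 is the brightest of the WAT columns for Pttg1 alone.

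Set against the geometric mean of the 35 genes in the same library, members lie above or below it by construction, so only which genes stand where is described. Nuf2 and Cdk1 were relatively higher in every LPS library than in every WAT library, by log2 0.86 and 0.61 between group means. Ube2c, Nusap1, Foxm1, Kif23 and Ndc80 were relatively lower in every LPS library than in every WAT library, by log2 -0.48, -0.46, -0.39, -0.37 and -0.34. The groups nearly touched for Ndc80 (highest LPS -1.176, lowest WAT -1.174) and Kif23 (highest LPS -0.702, lowest WAT -0.687). They did so for Cdk1 as well (lowest LPS 1.677, highest WAT 1.659). The steadiest member across tumours was Mki67, whose relative level had an SD of 0.0951 on the log2 scale over the 8 tumours, and the least steady were Mybl2 at 0.673 and Top2a at 0.637. These relative levels are a description, with no test.

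The promoters of these genes were searched for elements of their shared regulators. RefSeq windows on GRCm38.p6, from 250 bases before to 50 after each start, were found for 29 of the 35 genes. Ccna2, Cdc25c, Foxm1, Aurkb, Tpx2 and Kif20a are named only. For 25 of the 29 a RefSeq start lay within 150 bases of the 5′ end of the GENCODE M21 gene. It lay 270 bases inside the gene for Pttg1, 328 for Kif4 and 3867 for Kif2c, and before the gene for Mad2l1, so those windows may miss the promoter in use. Each window was searched on both strands for the CHR element (TTTGAA), which MuvB binds, and for the CCAAT box (CCAAT), which NF-Y binds, and no CHR and CCAAT match shared a base in the 31 windows of the 29 genes. A CHR match stood in the windows of 20 of the 29 genes, 69%, against 20.2% of all 27025 genes with a window and 14.3% of the 10009 whose rows were tested. A CCAAT match stood in 21, 72.4%, against 41.1% and 42.7%. Both stood in 18, 62.1%, against 7.97% and 5.87%. The 120 bases before the RefSeq start are given for Cdk1 and Cdc20, which were called; Ube2c and Top2a, which were not; and Nuf2, which was called and holds neither match. Capitals mark CHR and CCAAT matches on either strand (TTTGAA or TTCAAA, and CCAAT or ATTGG), and each sequence runs 5′ to 3′ on the gene's strand.
Cdk1 (GRCm38.p6 chr10:69352913-69353032, minus strand): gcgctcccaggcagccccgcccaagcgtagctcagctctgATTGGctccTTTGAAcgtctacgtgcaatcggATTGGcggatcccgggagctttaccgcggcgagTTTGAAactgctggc
Cdc20 (GRCm38.p6 chr4:118437344-118437463, minus strand): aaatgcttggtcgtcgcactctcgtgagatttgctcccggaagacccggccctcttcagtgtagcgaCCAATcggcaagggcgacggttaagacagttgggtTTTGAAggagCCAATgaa
Ube2c (GRCm38.p6 chr2:164769809-164769928, plus strand): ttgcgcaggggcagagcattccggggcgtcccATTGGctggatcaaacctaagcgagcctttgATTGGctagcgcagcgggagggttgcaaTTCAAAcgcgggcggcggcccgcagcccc
Top2a (GRCm38.p6 chr11:99024190-99024309, minus strand): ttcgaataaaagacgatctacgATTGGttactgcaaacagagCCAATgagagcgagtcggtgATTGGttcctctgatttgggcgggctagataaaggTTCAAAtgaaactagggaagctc
Nuf2 (GRCm38.p6 chr1:169531465-169531584, minus strand): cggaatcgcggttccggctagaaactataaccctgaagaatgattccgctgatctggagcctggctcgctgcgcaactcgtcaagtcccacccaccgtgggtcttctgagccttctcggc
In these windows the CHR match nearest to the start begins at base -15 in Cdk1, -18 in Cdc20, -29 in Ube2c and -23 in Top2a, counted back from the start, and at least 1 CCAAT match lies upstream of it in each. Matches were found in genes that were called and in genes that were not: Kif11, Espl1, Ndc80, Kif23, Cenpa, Ube2c and Top2a hold a CHR match without a call, and Nuf2, Mad2l1, Mybl2 and Birc5 were called with neither. A match describes letters and not a bound site.

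Other genes of mitosis, taken from 7 lists by function that hold none of the 35, were set beside them. Of 141 tested genes, 66 were called higher and 5 lower, with a median log2 difference of 0.62; over all tested rows 18.9% were higher and 27% lower. Without WAT 3 the counts were 35 higher and 5 lower, and without WAT 4 they were 23 and 3. Without WAT 2, 3 were lower. The 66 include Kif14 and Depdc1a, and the 5 include Myb. Each of these genes passed the filter on low values through a single group. The counts by list below moved with those libraries, too.

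Among 15 regulators of mitotic entry 7 were higher and none lower (4 higher without WAT 4). Cks2, a small subunit that binds CDK1, averaged 17.9 ± 7.49 FPKM in LPS and 5.13 ± 2.00 FPKM in WAT (SD, n = 8 and n = 4; limma adjusted p = 0.00159). Nek2, a centrosome kinase, averaged 6.49 FPKM in LPS and 2.32 FPKM in WAT, and its call ended without WAT 4 (adjusted p = 0.0947). Arpp19, which blocks the phosphatase PP2A, was not called (42.1 FPKM in LPS and 42.3 FPKM in WAT). Of 9 genes of the chromosomal passenger complex, centromere cohesion and checkpoint release, 5 were higher, 8 without LPS 7, 3 without LPS 8, 2 without WAT 2 or WAT 3 and 1 without WAT 4. Trip13, an ATPase that recycles MAD2, averaged 3.69 FPKM in LPS and 1.42 FPKM in WAT. Cdca8, borealin, averaged 7.85 FPKM in LPS and 3.19 FPKM in WAT, and lost its call without WAT 3 or WAT 4 (limma adjusted p = 0.0536 and 0.0954). Mad1l1, the MAD2 receptor at kinetochores, was not called (9.99 FPKM in LPS and 8.27 FPKM in WAT), but was without LPS 5 (adjusted p = 0.0267).

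Of 31 other kinetochore and centromere genes 18 were higher and none lower, and 8 were higher without WAT 3 or WAT 4. Spc25, of the NDC80 complex, averaged 13.1 ± 3.96 FPKM in LPS and 4.86 ± 2.19 FPKM in WAT (SD, n = 8 and n = 4; limma adjusted p = 0.00180). Knstrn, a protein of spindle and kinetochore, averaged 10.4 FPKM in LPS and 3.81 FPKM in WAT, and lost its call without LPS 2, LPS 4, LPS 8, WAT 2, WAT 3 or WAT 4 (highest adjusted p = 0.119). Hjurp, the chaperone of CENP-A, was not called (62.5 FPKM in LPS and 46.7 FPKM in WAT). Of 29 other genes of spindle motors, poles and cytokinesis 21 were higher and 1 lower. The counts were 10 and 2 without WAT 3, and 5 and 0 without WAT 4, and none was lower without WAT 2. The 21 include Kif14 (0.297 to 0.900 FPKM in WAT) and Depdc1a (0.227 to 0.966 FPKM in WAT). Both passed the filter on low values through LPS alone, so their calls are no evidence of a difference. Gtse1, a microtubule-binding protein, averaged 5.39 ± 2.90 FPKM in LPS and 1.28 ± 0.438 FPKM in WAT (SD, n = 8 and n = 4; limma adjusted p = 0.00293). Spag5, astrin, averaged 10.1 FPKM in LPS and 2.82 FPKM in WAT (adjusted p = 0.0646 without WAT 4). Numa1, which tethers microtubules at the poles and has a role in interphase nuclei, was lower at 20.4 FPKM in LPS and 29.2 FPKM in WAT, without a call when WAT 2 or WAT 4 was left out (adjusted p = 0.0658 and 0.0536). Ckap5 shares its row with the small nucleolar RNA Snord67 and was not called (43.0 FPKM in LPS and 109 FPKM in WAT), but was without WAT 3 (adjusted p = 0.00627).

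Condensins fold mitotic chromosomes and cohesin holds sister chromatids together. Of 20 condensin and cohesin genes 4 were higher: the condensin genes Ncapg, Ncaph and Smc2 and the cohesin regulator Pds5b. That share lies near the 18.9% of all tested rows. Without LPS 2, LPS 3, LPS 5, LPS 8 or WAT 3 the count was 2, and without WAT 4 it was 1. Ncaph averaged 11.4 ± 3.59 FPKM in LPS and 5.58 ± 1.73 FPKM in WAT (limma adjusted p = 0.0145, and 0.0645 without WAT 4). Ncapg averaged 8.59 FPKM in LPS and 3.68 FPKM in WAT, and its call was lost without LPS 2, LPS 3, LPS 4, LPS 5, LPS 6, LPS 8, WAT 2, WAT 3 or WAT 4 (highest adjusted p = 0.155). The cohesin subunit Rad21 was not called (39.8 FPKM in LPS and 37.2 FPKM in WAT). Of 16 genes of the anaphase-promoting complex and its partners 3 were higher (5 without LPS 7) and 1 lower, which is near the 18.9% of all tested rows called higher. Anapc4 averaged 36.8 ± 2.41 FPKM in LPS and 22.9 ± 3.33 FPKM in WAT (SD, n = 8 and n = 4; limma adjusted p = 0.000134). The chain-elongating enzyme gene Ube2s averaged 18.3 FPKM in LPS and 11.6 FPKM in WAT (adjusted p = 0.0570 without WAT 4). Anapc13, a small subunit, went the other way, at 27.3 FPKM in LPS and 55.5 FPKM in WAT, and Anapc5 was not called (55.1 FPKM in LPS and 51.2 FPKM in WAT).

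Of 21 genes of the DREAM, MuvB, E2F and NF-Y factors 8 were higher and 3 lower, beside 18.9% and 27% of all tested rows; 4 were higher without WAT 3, 2 without WAT 4, and 5 were lower without LPS 1. Myb, a factor of blood and precursor cells, lay at 0.0596 to 0.140 FPKM in LPS and 1.85 to 3.11 FPKM in WAT. It passed the filter on low values through WAT alone, so its difference is given with no test. Myb is still 1 of the 3 genes counted as lower in this list. Mybl1 averaged 3.21 FPKM in LPS and 1.21 FPKM in WAT and lost its call without WAT 4 (adjusted p = 0.0514); Mybl2 is described above. E2f5, a partner of the RB-like proteins, averaged 7.60 ± 0.686 FPKM in LPS and 4.20 ± 0.507 FPKM in WAT (SD, n = 8 and n = 4). E2f2 averaged 1.95 ± 0.841 FPKM in LPS and 5.87 ± 0.336 FPKM in WAT (log2 difference -1.27; limma adjusted p = 0.000201). E2f2 and Myb are known to act in erythroid and lymphoid cells, whose marker sums are given above, and the part of those cells in these values was not tested. Tfdp1, the dimer partner of E2F proteins, was not called (19.5 FPKM in LPS and 17.8 FPKM in WAT).

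Age within the tumours gave no call. Fitted as a slope per month over the 8 tumours, all 35 genes had a negative slope. The genes share an order of tumours, so these slopes are not independent. None of them reached an adjusted or an unadjusted p below 0.05 (limma, lowest unadjusted p = 0.248). Over all 13280 rows tested for age, 0% were called and 1.72% had an unadjusted p below 0.05.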

How the data were processed

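The authors deposited 1 table of FPKM values, per the file's name, with 1 column for each library. Per the labels' protocols, the tissue was flash frozen, and the RNA went through rRNA removal and a stranded library kit. The submitters' processing notes name Cuffdiff 2.2.1, Cufflinks 2.2.1, TopHat2 2.1.0, Bowtie2 and Trimmomatic, with build GRCm38, and state neither their order nor any further scaling. Fragment totals are unknown, so no counting interval is given. Libraries are biological replicates per the labels.

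Each gene was taken as the row of its name, or a joined row that holds it. Starts were counted from 1; 15 of the 35 rows then had the ends of the GENCODE M21 gene. Differences are LPS minus WAT on log2(FPKM + 1), fitted without covariate across rows of at least 1 FPKM in at least 4 libraries. The test was limma 3.58.1 (R 4.3.3; moderated with a trend and robust settings; two-sided; Benjamini-Hochberg over all rows). On data simulated from the 14821 rows it recovered 90% and 84% of log2 changes of 2 and -2, and 64% and 68% of those of 1 and -1. For 13280 rows it recovered 82% of age slopes of 1 and of -1 per month, and 30% and 36% of 0.5 and -0.5. A small part of the rows was changed in each simulation, drawn from rows with a mean log2(FPKM + 1) above 2. These rates may therefore not hold for genes of lower level, or where many rows differ as they do between LPS and WAT. Ratios of partner genes used exact permutation over libraries. The genes, lists and ratios were chosen with earlier results of these data known. Named genes are all 35, and from each list the 2 largest called each way and the most abundant not called; Pparg, Smc2 and Pds5b were picked with their values in view. The alternatives tried were other pseudocounts, filters, scalings, tests, weights, a block and left-out libraries.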

Additional observations from a re-analysis of the deposited data

How the results depend on the processing

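Of the alternatives to the fit of the 35 genes, none turned a direction. The count of genes called higher, 26, was 26 with a pseudocount of 0.1 or 0.5, 21 with no filter on low values, 27 with median-ratio scaling, 34 with array quality weights and 35 without LPS 5 and LPS 7 together, a choice made after seeing the data. It ranged from 11 to 34 with 1 library left out, and was 2 without WAT 1 and WAT 4 together. Replicate numbers did not pair the libraries: deviations of same-numbered LPS and WAT libraries correlated at -0.02, 0.02, 0.09 and 0.03. With the replicate number as a block, 22 were called. Numbers 5 to 8 exist in LPS alone, so that difference rests on LPS 1 to LPS 4 against WAT 1 to WAT 4. Top2a, Kif11 and Pttg1 (log2 difference 0.75, limma adjusted p = 0.0119) were gained. LPS 5 and LPS 7, where Pttg1 was lowest, do not enter that difference. Cdc25c, Foxm1, Mybl2, Aurkb, Birc5, Kif2c and Prc1 were not called. Over all rows the count called higher, 2806, was 3355 with median-ratio scaling, 4029 with array quality weights and 2664 with the block. With no filter it was 2646 of 27793 rows. It ranged from 2219 to 3218 with 1 library left out, and was 1462 without WAT 1 and WAT 4 together. Of the other mitotic genes, 13 were higher and 3 lower there, with 23 to 86 higher and 3 to 7 lower with 1 library left out. The count free of overlap, 0, was 1 after median-ratio scaling 0 to 20 with 1 library left out and 34 without LPS 1 and LPS 7 together. The median rank of LPS 8 was 3 after median-ratio scaling. Of the 10 ratios, 1 passed; with 1 library left out 0 to 2 did, and 3 without LPS 5 and LPS 7. The ratio Ccnb2 over Cdk1 changed sign without LPS 5 (log2 0.0060; range with 1 library left out -0.333 to 0.0060) and without LPS 5 and LPS 7 (0.0125). The ratio Birc5 over Aurkb did so without LPS 7 (0.0225; range -0.149 to 0.0225) and without LPS 5 and LPS 7 (0.0176), and the ratio Kif4 over Prc1 without WAT 4 (-0.0572; range -0.0572 to 0.409). The cause of these shifts was not tested.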
